A study of Arabidopsis thaliana with 6 samples.

Results

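The comparison described here sets 2 arrays of Arabidopsis thaliana plants overexpressing the microRNA miR164b against 2 arrays of plants transformed with the empty plasmid pML_Bart, which make up 4 of the 6 arrays of the series. The arrays were chosen by their sample descriptions alone, so no measured value entered the choice. All plants were of Columbia background, were grown in short days, and gave RNA from vegetative apices at 7 days. The other 2 arrays, of plants overexpressing miR172a in the same background and at the same age, share the estimate of spread and are shown beside the pair where a difference between the lines was tested. For the promoter that drives miR164b, the number of independent lines and any pooling of plants, the sources used here give nothing. Whether the 2 arrays per group hold RNA of different plants is not said either, so the p-values measure the spread between these arrays, which may be technical.

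MicroRNAs are short RNAs that guide an Argonaute protein to matching messenger RNAs, which are then cut or less translated. In Arabidopsis, miR164 pairs with mRNAs of NAC transcription factors, among them CUC1 and CUC2, which keep neighbouring organs apart at the shoot apex, and NAC1, which acts downstream of auxin in root branching. The question of the comparison is which transcripts of the vegetative apex differ when miR164b is overproduced.

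None of the 6 miR164 target genes written down for this comparison had a named probe set, and miR164b itself is not measured by a named probe set. The labelled overexpression was therefore not checked here, and the directions are those of the labels. Of 8 shoot apex markers 0 were measured, so the tissue label was not checked with that list. CLV3, the signal peptide of the stem cell domain, read 59.7 and 42.5 in vector and 64.6 and 82.4 in miR164b. RCA, a leaf photosynthesis gene, read 4111 and 3644 in vector and 3461 and 3826 in miR164b, and its groups overlapped. The root marker PYK10 read 4008 and 4082 in vector and 4134 and 4457 in miR164b. In bulk tissue, fewer cells of a type and less RNA per cell cannot be told apart.

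Values are the deposited linear intensities, scaled so that the mean without the lowest and highest 2% of probe sets is 200 on each array. Log2 changes are miR164b minus vector, and a value after ± is the standard error. The changes were taken of intensity + 16, an offset that understates the change of dim probe sets. Calls are at a limma p under 0.05 after Benjamini-Hochberg adjustment over 22746 probe sets. This adjusted p is printed for only part of the genes. Control probe sets differed between the groups: 25S rRNA read 4070 and 4093 in vector against 443 and 529 in miR164b, and the 3' to 5' ratio of actin was 3.0 and 2.94 against 1.96 and 2.11. The part of these differences in the results below was not tested.

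At this threshold 407 probe sets differed, 216 higher and 191 lower in miR164b, which is 1.79% of those tested (0.950% higher and 0.840% lower). They included 162 genes with a named probe set, 79 higher and 83 lower, and the arrays of the groups did not overlap for any of the 162. That is a weak criterion here, because the arrays of the groups did not overlap for 51.6% of all probe sets. Of the 162 genes, 21 rose and 23 fell by a log2 of at least 1, and the smallest called rise and fall were 0.50 and -0.51. The median log2 change over all probe sets was -0.05. The calls need all 4 arrays: BCAT4 and GSTU20 kept theirs in each alternative analysis, and the other 160 genes lost it without miR164b replicate 1, and 160 without miR164b replicate 2. Without vector replicate 1 or 2, 148 and 150 genes lost their call.

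**Figure D1:**
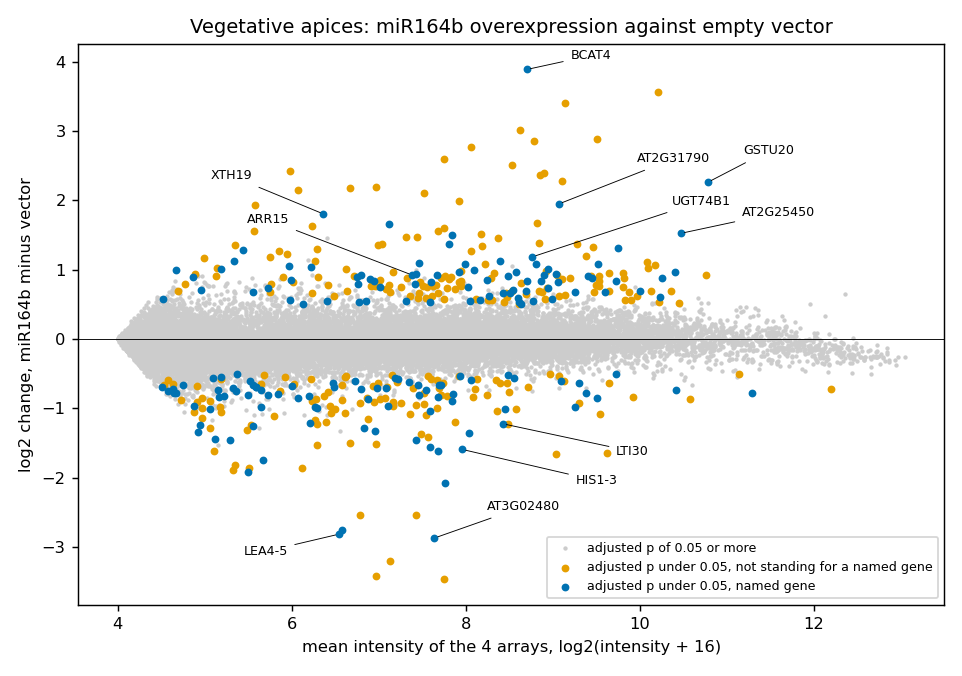
Log2 change (miR164b minus vector) against the mean level of the 4 arrays, log2(intensity + 16), for each of the 22746 probe sets. Blue points are the 162 named genes with an adjusted p under 0.05, orange points the other probe sets past that threshold, and BCAT4 lies highest.

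Genes of methionine-derived glucosinolate synthesis rose. Glucosinolates are sulphur-rich defence compounds of the cabbage order, and this branch lengthens the side chain of methionine, builds the core structure and then modifies the side chain. Of the 35 genes of the list 8 had a named probe set, and 5 of these rose, 0 fell and 3 did not pass, with a median log2 change of 1.35. Over all probe sets 0.950% were called higher. Like the other lists here, this list was written with earlier results of these data known, so its count is not independent support. BCAT4, the aminotransferase of the first step of chain elongation, stood at 39.6 and 34.1 without overexpression, at 748.3 and 780.4 with miR164b and at 21.8 and 22.5 with miR172a. Its level in miR164b stood far above both other groups (log2 change 3.89 ± 0.09, adjusted p = 0.00028).

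The members of core synthesis followed. GSTU20, a glutathione transferase assigned to the step that adds sulphur, read 581.1 and 602.7 in vector and 2718 and 3087 in miR164b (log2 2.26 ± 0.09, adjusted p = 0.00158). It was the 1 riser among 11 measured members of the tau class of these transferases, whose median log2 change was -0.13. UGT74B1, which adds glucose to the core, read 259.1 and 241.1 against 617.8 and 560.4 (log2 1.18 ± 0.09, adjusted p = 0.00794). AT2G31790, which encodes a glucosyltransferase of the same family, read 191.6 and 219.8 against 813 and 861.6 (log2 1.95 ± 0.10, adjusted p = 0.00222). Both glucosyltransferase genes were thus raised, while the 47 measured UDP-glycosyltransferases found by their UGT symbol, which include UGT74B1 but not AT2G31790, had a median of -0.14, with 1 riser and UGT84A1 as the 1 that fell, from 23.4 and 33.8 to 7.8 and 4.5 (adjusted p = 0.0393).

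Side chain modification was represented by AT2G25450, an oxygenase gene, which read 701.9 and 733 in vector and 1999 and 2189 in miR164b (log2 1.52 ± 0.09, adjusted p = 0.00353). The dim gene AOP3, another side chain oxygenase, read 8.5 and 4.5 against 18.7 and 5.4, and its groups overlapped (adjusted p = 0.673). The 2 glucosinolate transporters of the list, which import these compounds into cells, gave no call. GTR1 read 139.2 and 146.4 against 147.9 and 136.3 and GTR2 185.4 and 220.8 against 207.3 and 209 (adjusted p = 0.98 and 0.886). The 5 calls became 4 without either vector array and 2 without either miR164b array.

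In sulphate assimilation, which supplies the sulphur, 2 of 12 listed genes were measured and 1 rose. SIR, the sulphite reductase, read 552.3 and 608 in vector and 883.8 and 989.9 in miR164b (log2 0.68 ± 0.10, adjusted p = 0.0424). APS3, an ATP sulphurylase that activates sulphate, read 127 and 101.5 against 234.4 and 210.3 and did not pass (log2 0.88 ± 0.18, adjusted p = 0.0874). The groups did not overlap for either gene, which held with a higher value for 19.1% of all probe sets. The SIR call was lost without any one of the 4 arrays, as it was in 9 of 14 alternatives in all.

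The rises of the glucosinolate genes were also tested against miR172a, a contrast in which 7.14% of probe sets passed and which shares the miR164b arrays. The line overexpressing miR164b had the higher level throughout: BCAT4 by a log2 of 4.35 ± 0.09 (adjusted p = 0.000132), GSTU20 by 2.70 ± 0.09, AT2G25450 by 2.12 ± 0.09, AT2G31790 by 1.80 ± 0.10 and UGT74B1 by 1.38 ± 0.09, and each passed. SIR did not pass this contrast (log2 0.39, adjusted p = 0.0766), and APS3 did (log2 1.34, adjusted p = 0.0157). GTR1 was lower in miR164b than in miR172a (log2 -0.62, adjusted p = 0.017).

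**Figure D2:**
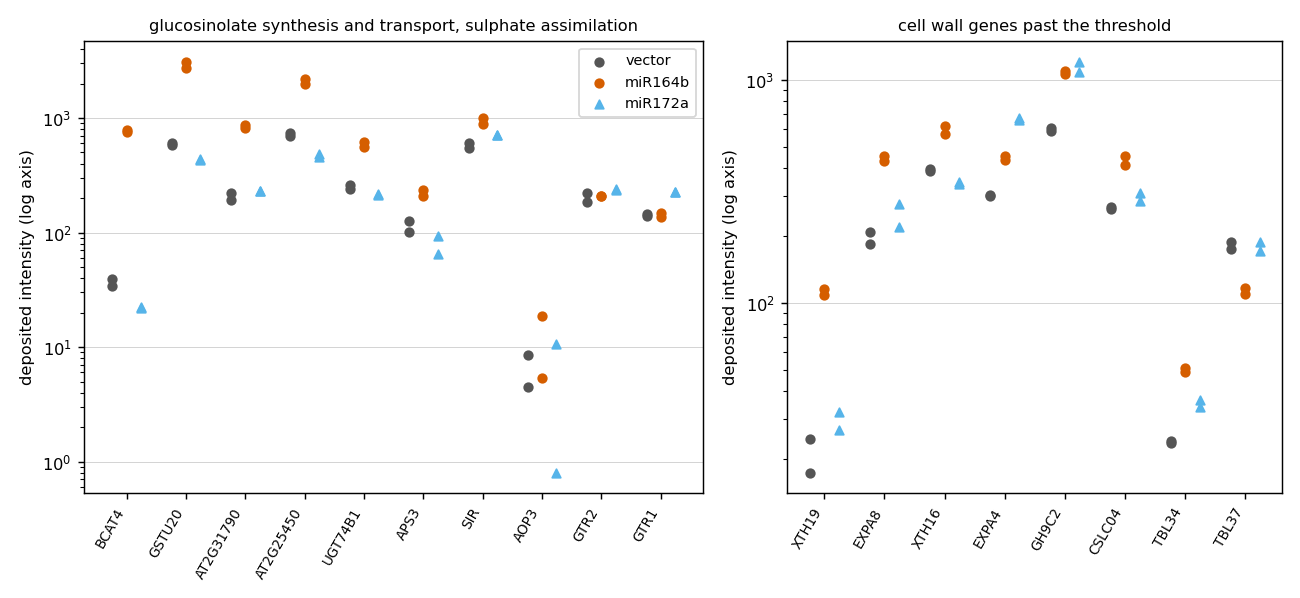
Deposited intensity (log axis) on each of the 2 arrays per group for 10 glucosinolate and sulphate genes, ordered by log2 change, and for 8 cell wall genes past the threshold. Orange points (miR164b) lie above the grey points (vector) for all genes but AOP3, GTR1 and GTR2, where the groups overlap, and TBL37, which is lower in miR164b.

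Genes that act on the cell wall made up the next group of rises. Expansins loosen the wall and xyloglucan endotransglucosylases (XTH) cut and rejoin its hemicellulose as cells grow. Of 27 measured members 4 rose and 0 fell, with a median log2 change of 0.05, and 6 members read below 16 on every array. Of all probe sets, 0.950% were called higher. XTH19 read 24.5 and 17.3 in vector and 108.5 and 115.7 in miR164b (log2 1.80 ± 0.13, adjusted p = 0.00575). EXPA8, an expansin, read 207.5 and 183.3 against 432.3 and 456.8 (log2 1.13 ± 0.13, adjusted p = 0.024). The smaller rises were those of XTH16, from 389.7 and 395.8 to 622 and 569.7, and EXPA4, from 304.9 and 300.9 to 434.9 and 455.8. Their adjusted p was 0.0429 and 0.0446. The 4 rises became 1 without either vector array, 0 without either miR164b array and 1 with an offset of 1. Against miR172a, XTH19, EXPA8 and XTH16 were higher in miR164b (log2 1.49, 0.81 and 0.76), and EXPA4 was lower (log2 -0.56, adjusted p = 0.0179).

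Other wall genes past the threshold are named here after their values were seen. CSLC04, which makes the xyloglucan backbone, read 264 and 269.2 in vector and 412.3 and 453.5 in miR164b (log2 0.67 ± 0.09). GH9C2, a cellulase-type hydrolase, read 587.9 and 604.3 against 1057 and 1089 (log2 0.83 ± 0.09). GER2, of GDP-fucose synthesis, read 140.8 and 141.9 against 205.3 and 217.9 (log2 0.53 ± 0.08, adjusted p = 0.0454). All 3 rose. In the TBL family of wall acetylation, TBL34 rose (log2 0.73) and TBL37 fell (log2 -0.61). Against miR172a, CSLC04 was higher and TBL37 lower in miR164b (log2 0.51 and -0.60). GH9C2, GER2 and TBL34 did not pass that contrast (log2 -0.09, 0.32 and 0.36), and GH9C2 read 1201 and 1080 on the miR172a arrays.

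Pectin and peroxidase genes moved both ways. AT1G05310, of the pectin methylesterase family, read 11.1 and 7.9 in vector and 47.4 and 44 in miR164b (log2 1.28 ± 0.14), and AT5G62360, of the invertase and pectin methylesterase inhibitor family, 102 and 105.2 against 325.1 and 320.6 (log2 1.50 ± 0.08). The class III peroxidase gene AT5G51890 rose from 113.6 and 105 to 315.3 and 298.1 and its relative AT5G58390 from 71.2 and 74.5 to 137.8 and 147.4. Another peroxidase gene, AT5G64110, fell from 240.7 and 231.9 to 78.8 and 73.6 (log2 -1.45 ± 0.08, adjusted p = 0.00295). The differences of AT5G51890, AT5G58390 and AT5G64110 from miR172a did not pass (log2 0.25, 0.19 and -0.09). In miR172a these peroxidase genes changed in the same directions against the same vector arrays (log2 1.11, 0.65 and -1.36). AT1G05310 and AT5G62360 were higher in miR164b than in miR172a (adjusted p = 0.00953 and 0.00177).

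TUB1, a beta-tubulin, read 258.3 and 284.3 in vector and 579.9 and 606.1 in miR164b (log2 1.09 ± 0.10, adjusted p = 0.0115). Its miR172a arrays read 594.4 and 664.3, and the difference between the lines did not pass (log2 -0.08, adjusted p = 0.689). Of 29 serine carboxypeptidase-like genes scpl31 and scpl48 rose and 0 fell, with a family median of 0.11. The former read 25.2 and 24.5 against 69.6 and 67.2, and the latter 58.1 and 63.3 against 122.4 and 137.1. Of 11 genes of the PRA1 family, whose proteins bind small GTPases of membrane traffic, PRA1.F1 rose (79.1 and 81.8 to 150.3 and 140.9), and the family median was 0.25. For comparison with the counts of both families, 0.950% of all probe sets were called higher. The differences of scpl31, scpl48 and PRA1.F1 from miR172a did not pass (log2 0.08, 0.16 and -0.15). The scpl and PRA1.F1 calls were lost without any one of the 4 compared arrays.

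Lipid and defence genes also appeared among the rises and were likewise named after their values were seen. They are not a full account of such genes, and defence genes among the falls are not covered here. Phosphocholine for membranes is made by phosphoethanolamine methyltransferases, and both measured genes of this family rose, PMEAMT from 360.9 and 350.4 to 589.8 and 613.6 and AT1G73600 from 158.5 and 173.7 to 330.7 and 364.7. The GDSL-type lipase genes AT1G54790, AT1G29660 and AT5G33370 rose by log2 changes of 1.12, 1.08 and 0.57. ECS1, a small secreted protein linked to resistance to Xanthomonas in some accessions, read 907.1 and 901 against 1713 and 1854 (log2 0.97 ± 0.09). THI2.2, an antimicrobial thionin, rose from 795.8 and 735.5 to 1195 and 1311 (log2 0.70). Against miR172a, PMEAMT, AT1G54790, AT1G29660 and ECS1 did not pass (log2 0.23, 0.46, 0.28 and 0.12). The log2 differences from miR172a were 0.81 for AT1G73600, 1.36 for AT5G33370 and 0.87 for THI2.2. No call of this paragraph was held without miR164b replicate 1 or without miR164b replicate 2.

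Genes tied to water deficit fell. Late embryogenesis abundant (LEA) proteins and dehydrins are hydrophilic proteins that accumulate in drying seeds and under abscisic acid. Of the 28 genes of this list 9 were measured, and 5 fell, 0 rose and 4 did not pass, with a median log2 change of -1.22. Over all probe sets 0.840% were called lower. In miR172a, 6 of the 9 were called lower against the same vector arrays, with a median of -0.94, so the fall was not particular to miR164b. The 5 falls became 2 without either vector array, 0 without either miR164b array and 3 with an offset of 1. LEA4-5 read 158.4 and 136.6 in vector and 10.5 and 4.3 in miR164b (log2 -2.81 ± 0.27, adjusted p = 0.0129). An offset of 1 in place of 16 gave -4.25 and no call. The LEA-type genes AT3G02480 and AT3G17520 read 306.9 and 363.8 against 30.8 and 33, and 57.9 and 67.4 against 9.5 and 5.7 (log2 -2.87 ± 0.18 and -1.74 ± 0.14).

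LTI30, a cold- and dehydration-induced dehydrin, read 475.8 and 456.7 in vector and 191.8 and 189.2 in miR164b (log2 -1.22 ± 0.09, adjusted p = 0.00619). HIS1-3, a linker histone induced by drought, read 363.2 and 353.9 against 113.1 and 103.3 (log2 -1.59 ± 0.10, adjusted p = 0.00369). All 5 genes that fell were thus lower on both miR164b arrays than on either vector array, which held for 32.5% of all probe sets. The dehydrin COR47 went the other way in value, at 1123 and 1189 against 1655 and 1607, and missed the threshold (log2 0.49 ± 0.08, adjusted p = 0.0545). COR15A and COR15B, which protect chloroplast membranes in the cold, read 438 and 486.3 against 495.3 and 429.3 and 448.8 and 484.9 against 390.1 and 397.4 (adjusted p = 0.999 and 0.262). A probe set shared by the cold-induced genes KIN1 and KIN2, which it cannot tell apart, fell from 5898 and 5779 to 3338 and 3733 (log2 -0.72 ± 0.10). The miR172a arrays, for which 5.87% of probe sets passed against the same vector arrays, read 16.3 and 3.3 for LEA4-5 and 150.7 and 167.1 for LTI30. In the contrast of miR164b with miR172a, LEA4-5, AT3G02480, AT3G17520 and LTI30 did not pass (log2 differences -0.11, 0.12, -0.21 and 0.24), whereas HIS1-3 was lower (log2 -0.65) and COR47 higher (log2 0.98) in miR164b.

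Genes known from pollen were lower on the same arrays. Several polygalacturonase, pectate lyase and pectin methylesterase genes of pollen stood among the falls, so a list of 46 pollen genes was written from general knowledge after those calls had been seen. No expression atlas was used to check it. Of its 24 measured genes 0 rose, 6 fell and 18 did not pass, while 0.840% of all probe sets were called lower. All 24 had a value below 0, with a median log2 change of -0.59, against -0.05 over all named genes. The groups did not overlap in 22 of the 24, against 32.5% of all probe sets that did not overlap and were lower. The 6 falls had all been seen before the list was written. Of the 18 measured genes that had not been seen 0 passed, the groups of 16 did not overlap, and the median was -0.54. The 6 falls became 0 without any one of the 4 compared arrays. With an offset of 1 the median was -1.04 with 0 falls, and with 64 it was -0.28 with 9 falls, all 24 values staying below 0. Quantile normalization left 3 falls.

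AT3G07820, a polygalacturonase gene, read 80.6 and 94.5 in vector and 24.5 and 33.6 in miR164b (log2 -1.20 ± 0.13, adjusted p = 0.0188). AT3G01270, of the pectate lyase family, read 138.6 and 134.4 against 69.8 and 65.2, and AT5G45880, of the pollen Ole e 1 family, 154.1 and 178.9 against 85.6 and 70.2. A probe set shared by the pollen tube pectin methylesterases VGD1 and VGDH1 fell from 212.2 and 201.2 to 91.6 and 86.3 (log2 -1.09 ± 0.09, adjusted p = 0.00962). The intensities of the 24 genes summed to 1236 and 1212 with the empty vector, to 630 and 625.8 with miR164b, and to 811.2 and 710.2 with miR172a. Both vector arrays therefore stood above the arrays of either microRNA line, and 2 of the 24 genes read below 16 on every array. The intensities of the LEA and dehydrin list also summed highest on the vector arrays, but the order of the microRNA lines was reversed. For that list miR172a was lowest, at 2581 and 2589, while miR164b stood at 3138 and 3018. The part of the pollen sum in the LEA falls was not tested. The actin ratio differed between vector and miR164b too, and it was 2.25 and 3.05 on the miR172a arrays. Its part in the LEA and pollen values was not tested. Of 6 seed and embryo markers 0 were measured.

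**Figure D3:**
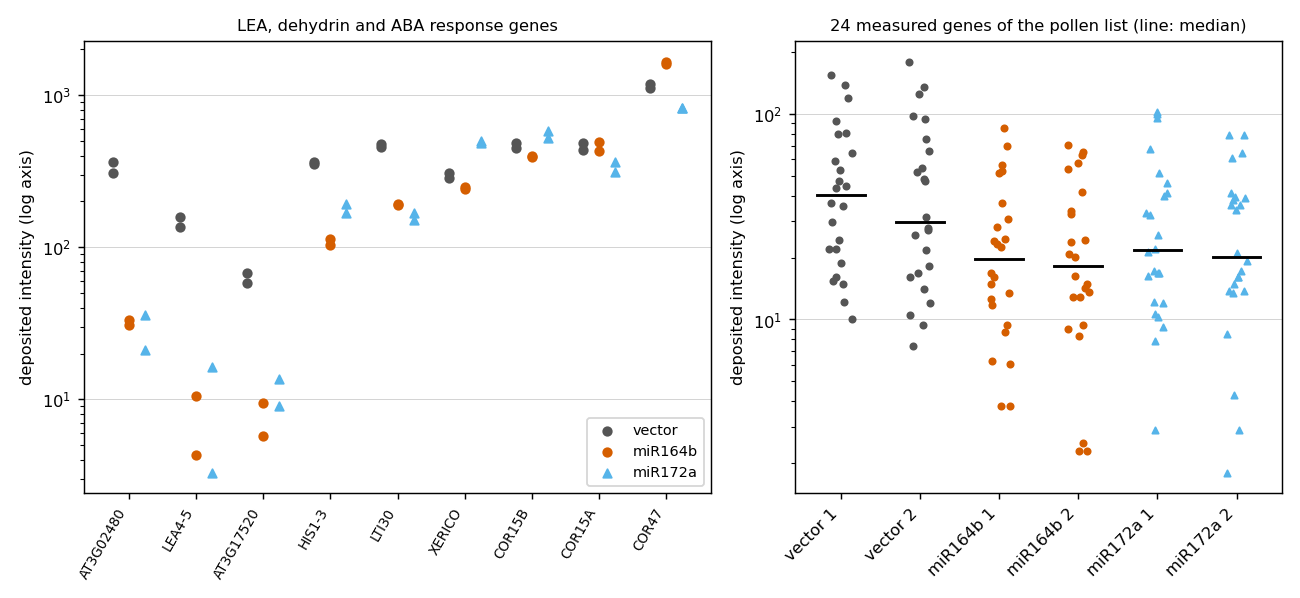
Deposited intensity (log axis) on each array for the 9 measured LEA, dehydrin and abscisic acid response genes, ordered by log2 change, and for the 24 measured pollen genes with the median of each array as a line. The 5 leftmost genes and the pollen medians are lower on the miR164b arrays than on the vector arrays, and miR172a is shown beside them.

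Lipid transfer protein-like genes, which encode small secreted proteins that carry lipids, held 6 falls and 0 rises among 19 measured members of a list of 40 that was written after those 6 had been seen. The share of all probe sets called lower was 0.840%. The 13 other members had a median log2 change of -0.11. AT2G37870 read 393.6 and 275.3 in vector and 80.4 and 54 in miR164b (log2 -2.07 ± 0.25, adjusted p = 0.0268). AT3G53980 read 244.5 and 300.6 against 89.3 and 74.1 (log2 -1.56 ± 0.13). The brightest of them, AT4G22490, read 3093 and 3215 against 1849 and 1829 (log2 -0.77 ± 0.08). The groups did not overlap for these 3 genes, which held with a lower value for 32.5% of all probe sets. AT5G01870 and AT4G22490 were also lower than in miR172a (log2 -0.76 and -0.70). The other called members, AT2G37870, AT3G53980, AT3G18280 and AT1G62510, did not pass that contrast (log2 0.31, -0.51, -0.38 and -0.27, adjusted p = 0.541, 0.0805, 0.0584 and 0.218). The 6 calls became 1 without vector replicate 1, 0 without vector replicate 2, 0 without either miR164b array and 1 with an offset of 1.

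Enzymes that break down amino acids gave 3 falls and 0 rises among 7 measured members, on a list written after those 3 had been seen. Of all probe sets, 0.840% were called lower. ASPGB1, an asparaginase that frees ammonium, read 90.4 and 81.4 in vector and 39.7 and 31.7 in miR164b (log2 -0.98 ± 0.15, adjusted p = 0.0454). MGL, a methionine gamma-lyase, read 132.8 and 149.7 against 79.2 and 81 (log2 -0.71 ± 0.09, adjusted p = 0.0308). AT4G33150, the bifunctional enzyme of lysine breakdown, read 113.7 and 109.4 against 71.2 and 64.5 (log2 -0.61 ± 0.09, adjusted p = 0.0492). Each of the 3 was lower on both miR164b arrays than on either vector array, which held for 32.5% of all probe sets. ASPGB1 and MGL were lower than in miR172a as well (log2 -0.95 and -0.84), and AT4G33150 did not pass that contrast (log2 -0.17, adjusted p = 0.346). The unseen members MCCA, MCCB, IVD and ASPGA1 had log2 changes from -0.43 to -0.17 and did not pass. All 3 calls were lost without any one of the 4 compared arrays and with an offset of 1.

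Among the hormone lists, 1 cytokinin gene rose and 1 auxin gene fell. ARR15, a response regulator that is induced by cytokinin and dampens its signal, read 96.6 and 102.8 in vector and 205.8 and 200.1 in miR164b (log2 0.92 ± 0.12, adjusted p = 0.0308). Its relative RR16 read 91.6 and 89.8 against 77.7 and 74.6 (log2 -0.21 ± 0.10, adjusted p = 0.331). These were the 2 measured of 13 cytokinin genes. WES1, which conjugates auxin to amino acids, read 983.4 and 980.7 against 682.4 and 690.2 and passed narrowly (log2 -0.51 ± 0.08, adjusted p = 0.0499), with 10 of 14 alternatives losing the call. Of 21 auxin genes the other 3 measured, GH3.3, GH3.1 and IAA29, did not pass.

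A few transcription factors and ubiquitin ligases past the threshold are named after their values were seen, and they are not a full account of such genes. BZIP61 rose from 72.5 and 55.1 to 122.2 and 120 (adjusted p = 0.0475). ALC, a bHLH factor known from fruit opening, fell from 223.5 and 211.4 to 124.9 and 123.9, and WRKY6, known from senescence and phosphate responses, from 30 and 27.1 to 9.5 and 11.8. PUB19, a U-box ubiquitin ligase that dampens drought responses, fell from 95 and 81.5 to 40.8 and 31.8 (adjusted p = 0.0338). AFR, an F-box protein of far-red light signalling, fell from 202.3 and 216.4 to 113.4 and 112.3 (log2 -0.81 ± 0.09). PUB19 and WRKY6 did not pass against miR172a (log2 0.03 and -0.35). ALC and AFR were lower in miR164b than in miR172a (log2 -0.95 and -0.70), and BZIP61 was higher (log2 0.77).

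Boundary and meristem genes, the roles nearest to the known miR164 targets, gave 0 calls among 5 measured of 32 listed (4199 of 22746 probe sets had an unadjusted p under 0.05). With 1.79% of all probe sets called, 0 calls among 5 genes says little about these roles. LAS, which is needed for axillary meristems, read 60.7 and 60.2 in vector and 37.6 and 44.3 in miR164b (log2 -0.43 ± 0.09, unadjusted p = 0.00396, adjusted p = 0.0976). It was lower in miR164b than in miR172a, at 63.9 and 65.8 (log2 -0.51, adjusted p = 0.0339). JAG, YAB3 and PHV, which shape lateral organs, had log2 changes of -0.31, -0.12 and -0.23, and CLV3 of 0.42. LAS and PHV were the members besides CLV3 with an unadjusted p under 0.05 (0.03 for PHV and 0.0445 for CLV3).

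Lists of flowering, flavonoid, clock and small RNA genes gave no call, but few of their 24, 13, 13 and 14 genes were measured. With 1.79% of all probe sets called, 0 calls among so few genes says little about these programmes. Of 6 measured flowering regulators 0 passed, with AGL24 highest at 28.7 and 28.8 against 60.3 and 43.8 (log2 0.59 ± 0.13, adjusted p = 0.109) and the repressors SMZ and SNZ at log2 changes of 0.06 and -0.25. Of 4 flavonoid genes 0 passed, and DFR read 284 and 258.6 against 329.8 and 313.9. Of 3 clock and cold genes 0 passed, with GI at 490.2 and 502.4 against 463 and 502.4. Of 3 small RNA genes, SE, AGO7 and SQN, which act in making or loading microRNAs, 0 passed (log2 -0.10, -0.03 and 0.28). In these lists AGL24 and the clock list gene AT4G33980 had an unadjusted p under 0.05 (0.00511 and 0.0384).

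Plastid-encoded transcripts were lower in value without single calls. Of 69 measured genes 0 passed, 64 had a value below 0, and the median log2 change was -0.30. Over all named genes, 8298 of 13355 had a value below 0. This median was -0.18 without vector replicate 1 and -0.16 without miR164b replicate 1. Probe sets that match both copies of a repeated plastid gene were not counted in this list, and those of rps12 and ycf2 did pass. That of ycf2 fell from 282.9 and 247 to 140.3 and 145.8 (log2 -0.82 ± 0.10, adjusted p = 0.0304). The nuclear light-harvesting genes LHCB4.1, LHCB4.2 and LHCB4.3 had log2 changes of -0.06, -0.16 and -0.28 and did not pass. The 25S rRNA values differed between the same groups, and their part was not tested. On the miR172a arrays 25S rRNA read 355.4 and 3462, while the intensities of the 69 plastid genes summed to 160986 and 169000, against 192599 and 175112 in vector and 142113 and 166042 in miR164b.

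**Figure D4:**
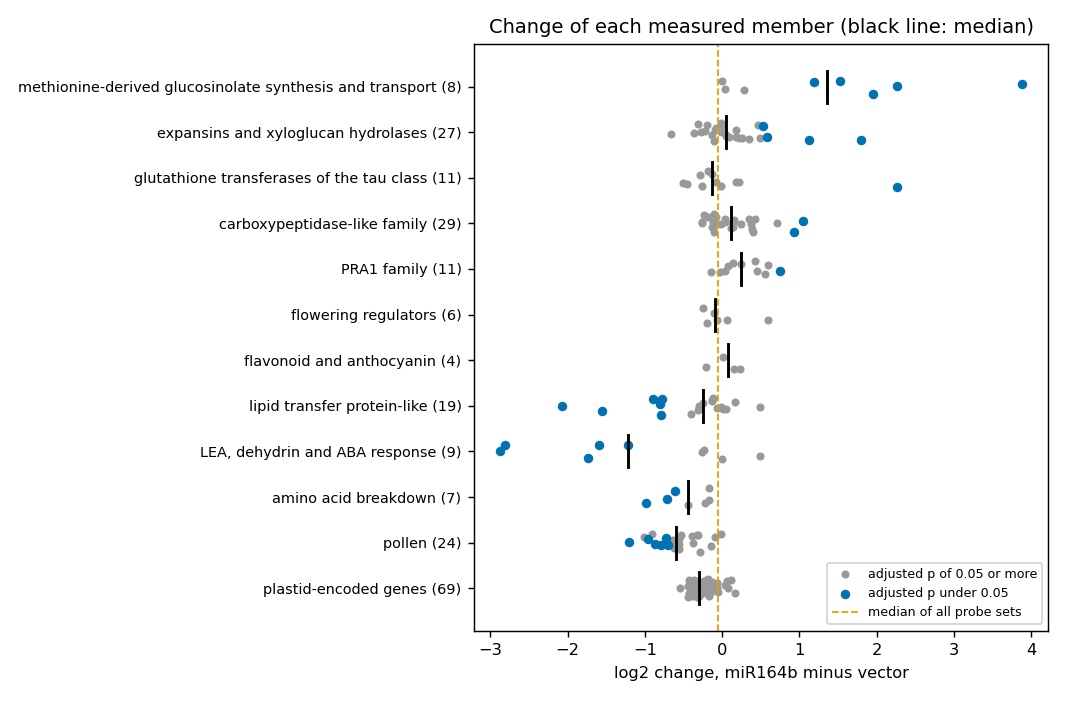
Log2 change (miR164b minus vector) of each measured member of 12 gene lists, with the number of members in brackets, the list median as a black line and the median of all probe sets as a dashed line. Glucosinolate genes lie to the right with a median of 1.35, and LEA and pollen genes to the left with medians of -1.22 and -0.59.

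The adjacent loci AT4G30450 and AT4G30460, which encode glycine-rich proteins, both fell, from 116.9 and 127.1 to 70.6 and 65.4 and from 152 and 138.3 to 47.9 and 52.5 (log2 -0.72 ± 0.09 and -1.28 ± 0.11). On the miR172a arrays they read 402.6 and 386.5, and 194.7 and 224.7. AT4G39675, for which no function is given here, fell from 61.1 and 50.4 to 1.8 and 4.1 (log2 -1.92 ± 0.11), and AT1G19530 from 130.4 and 171.8 to 12.3 and 5.2 (log2 -2.76 ± 0.25). The miR172a arrays read 1.2 and 0.4 for the former and 10.7 and 23.9 for the latter. Neither gene passed the contrast of miR164b with miR172a (log2 0.17 and -0.41). Of the 407 probe sets 244 carry no single gene name, 234 of them because the annotation used here does not list them. The largest changes among these include 249866_at, which read 161.9 and 173.8 in vector and 2092 and 2232 in miR164b (log2 3.57 ± 0.09), and 262128_at, which read 362.2 and 392.8 against 18.9 and 20.3 (log2 -3.47 ± 0.09). The miR172a values were 25.1 and 26.6 for 249866_at and 35 and 32.3 for 262128_at.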

How the data were processed

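Affymetrix arrays of 6 RNA samples were compared. The authors deposited 1 linear intensity per probe set and array for 22810 probe sets. The scaling to a trimmed mean of 200 was found from the deposited intensities themselves, and the sources used here name neither the software nor the summary method. The 64 AFFX control probe sets were left out, and no further normalization was applied. Values were analysed as log2(intensity + 16) with limma 3.58.1 in R 4.3.3, with 1 mean per group over all 6 arrays (3 residual and 2.69 prior degrees of freedom) and 2-sided tests. Figures were drawn with matplotlib 3.10.9. The method was tested on simulated arrays, and no result of that test is given here.

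Of the tested probe sets, 13513 had 1 gene symbol, 503 several and 8730 none in the array annotation, and 13436 of them matched a gene table of assembly TAIR10.1 that served to name genes. The brightest probe set stood for a gene, which gave 13355 genes. The rule for named genes was each measured miR164 target, the 25 largest rises and falls, called list members and up to 4 others per list, and further calls said to be chosen after their values were seen. Among the largest changes, genes whose function is not given here are mostly left undescribed. The members and lists were chosen with earlier results of these data known. Lists of pollen, lipid transfer protein-like, amino acid breakdown and phosphoethanolamine methyltransferase genes were added after the calls had been seen. Plastid genes were matched by the chromosome in the gene table, because the locus pattern first set found none. Of the lists written, those for tryptophan-derived glucosinolates, glucosinolate breakdown, gibberellin and brassinosteroid enzymes, and vascular tissue had 0 measured genes. Alternatives were offsets of 1 and 64, 2 scalings, a filter on dim probe sets, a replicate block, other variance settings, a threshold of 0.1 and leaving out each array. Samples of the same letter in their titles did not deviate together (correlations of -0.011, 0.105 and 0.079). Precision is limited by having 2 arrays per group.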

Additional observations from a re-analysis of the deposited data

Results flagged for a closer look

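For 8 genes the changes of the 2 microRNA lines against the shared vector arrays both passed with opposite signs, and the difference between the lines, tested as miR164b minus miR172a, passed as well. Higher in miR164b by this difference were BCAT4 (log2 4.35, with 3.89 and -0.47 against vector), AT2G25450 (2.12, with 1.52 and -0.59), AT1G07050 (2.01, with 0.86 and -1.15) and AT2G43550 (1.98, with 1.31 and -0.66). The same held for AT1G76240 (1.44, with 0.97 and -0.47), the GDSL lipase gene AT5G33370 (1.36, with 0.57 and -0.79) and AT2G30930 (1.197, with 0.54 and -0.65). Lower in miR164b was AT4G30450 (-2.29, with -0.72 and 1.57). The tests share the vector or the miR164b arrays and are not independent.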

How the results depend on the processing

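The 407 calls against vector became 103 with an offset of 1, 916 with 64, 1148 without the 40% dimmest probe sets, 144 with only the compared groups in the fit, 1033 with trended robust variances and 964 at an adjusted p under 0.1. With the replicate block they became 186. Their split of 216 higher and 191 lower changed to 254 and 155 after centring on medians, to 243 and 155 after quantile scaling, and to 449 and 515 under the looser threshold. The same title letter did not pair the samples. Leaving out 1 array gave 9 to 144 calls, with the lone array of a group assumed to vary like the other groups. The 1623 calls against miR172a became 683, 2707, 2979, 1018, 2781 and 2948 in the same order, 1104 with the block, and 102 to 1018 without 1 array. Their split of 708 higher and 915 lower turned to 991 and 652 with median centring. No called gene reversed. Of 162 called genes, 131 lost their call with an offset of 1, 12 with 64, 19 with median centring, 25 with quantile normalization and 94 with the block. For genes with several probe sets, AT1G31710 lost its call on the other one (log2 0.49), and GAT1_2.1 was called on the dimmer one alone (log2 -1.14 against -0.11).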
